A study of Mus musculus with 6 samples.

Results

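The results concern the p53 gene family and its close regulators in mouse epidermis: the family genes Trp63, Trp53 and Trp73, the arrest gene Cdkn1a, and 4 genes whose products control p63 or p53 protein, Mdm2, Itch, Wwp1 and Ppp1r13l. They were picked by symbol, and all 8 were found among the 30386 genes of the table. The samples were 3 libraries of the genotype labelled p63alphaKO and 3 wild-type (WT) libraries, all from back-skin epidermis of E18.5 mouse embryos, read from the 3' ends of mRNAs. The comparison bears on how much the epidermis depends on which p63 isoform it makes. How the p63alphaKO allele was built, whether it was present in 1 or both copies and which strain carried it are not stated in the labels, and nothing there says that the libraries of a group came from separate embryos.

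p63, the product of Trp63, is the transcription factor that sets up and maintains stratified epithelia, and basal keratinocytes make mostly its deltaN forms, which lack the amino-terminal transactivation domain of the TA forms. Its carboxy terminus also varies: the alpha forms are the longest and carry a SAM domain and an inhibitory tail, the beta and gamma forms lack these. p53 and p73 bind closely related DNA elements, and all 3 proteins are held in check by other proteins, among them ubiquitin ligases and the ASPP proteins. In humans, mutations in the carboxy-terminal part of p63 cause AEC syndrome, a disorder of skin and ectodermal appendages.

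The annotation shows what a 3' count can and cannot tell about the p63 isoforms. Trp63 (ENSMUSG00000022510) lies on chromosome 16 from 25683763 to 25892102 on the plus strand (mm10), and GENCODE release M21 lists 8 coding transcripts. Of these, 4 begin at the upstream (TA) start and 4 at the downstream (deltaN) start, 118 kb further on. The 3 alpha transcripts are the only ones with a 94-base coding exon next to the last exon, and 94 is not a multiple of 3. The beta transcript skips it, enters the last exon in another reading frame and reaches a stop codon after 13 coding bases, where the alpha frame runs on for 294. The alpha-only exon (chr16:25886206-25886299) and the first bases of the last exon (chr16:25889008-25889023), with the stop codon of the beta frame in capitals, are shown here 5′ to 3′ on the plus strand, because they are where alpha and beta mRNAs differ.
alpha-only exon: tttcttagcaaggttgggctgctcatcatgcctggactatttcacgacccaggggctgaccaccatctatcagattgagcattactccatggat
start of the last exon: gatttggcaagtcTGA

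Both kinds of mRNA share that last exon and its end: the 3 alpha transcripts end at the same base and the beta transcript 15 bases before it. The other 4 coding transcripts end elsewhere, the 2 gamma transcripts 15 kb upstream. Reads from the 3' end therefore count alpha and beta mRNAs together, and TA and deltaN mRNAs together. The single value per gene also takes in any counted reads from the gamma and other ends. It cannot show whether the alpha forms were lost. The map of the transcripts shows the shared end and the exon that sets the alpha forms apart.

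**Figure D1:**
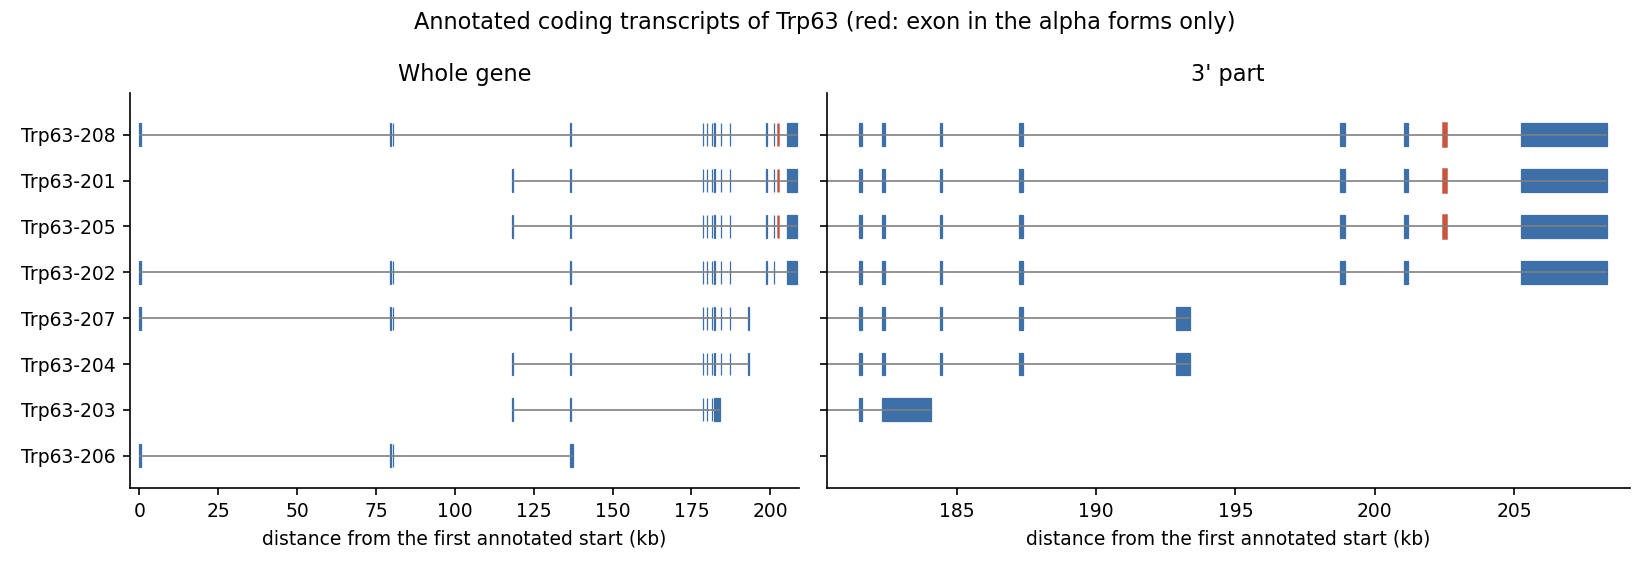
The 8 annotated coding transcripts of Trp63, with exons as boxes, drawn by distance in kb from the first annotated start; the left panel holds the whole gene and the right panel its 3' part. The alpha-only exon (red) is in 3 transcripts, and 4 transcripts share the rightmost end.

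Trp63 mRNA was higher in p63alphaKO epidermis, and Mdm2, Cdkn1a and the other tested genes of the set did not pass the test. Levels are in CPM, each gene's share of the library's reads scaled to a common total. Fold changes put p63alphaKO over WT and come from limma on log2(CPM + 1), fitted to the 7464 genes whose mean reached 10 CPM. A gene is said to have changed at a Benjamini-Hochberg adjusted p under 0.05, a threshold that 1.65% of the tested genes passed (0.469% higher and 1.18% lower in p63alphaKO). The split was 35 higher to 88 lower in limma and 152 higher to 165 lower with DESeq2, and without WT replicate 1 it was 90 to 96. Of the 8 genes, 7 reached the minimum for testing and 1 of them, Trp63, passed. The 7 had a median log2 fold change of 0.15, 5 of them positive and 2 negative, against a median of -0.085 over all tested genes, of which 40.2% were positive. With 3 libraries a side, an exact two-sided permutation test of a single gene cannot go below p = 0.1.

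**Figure D2:**
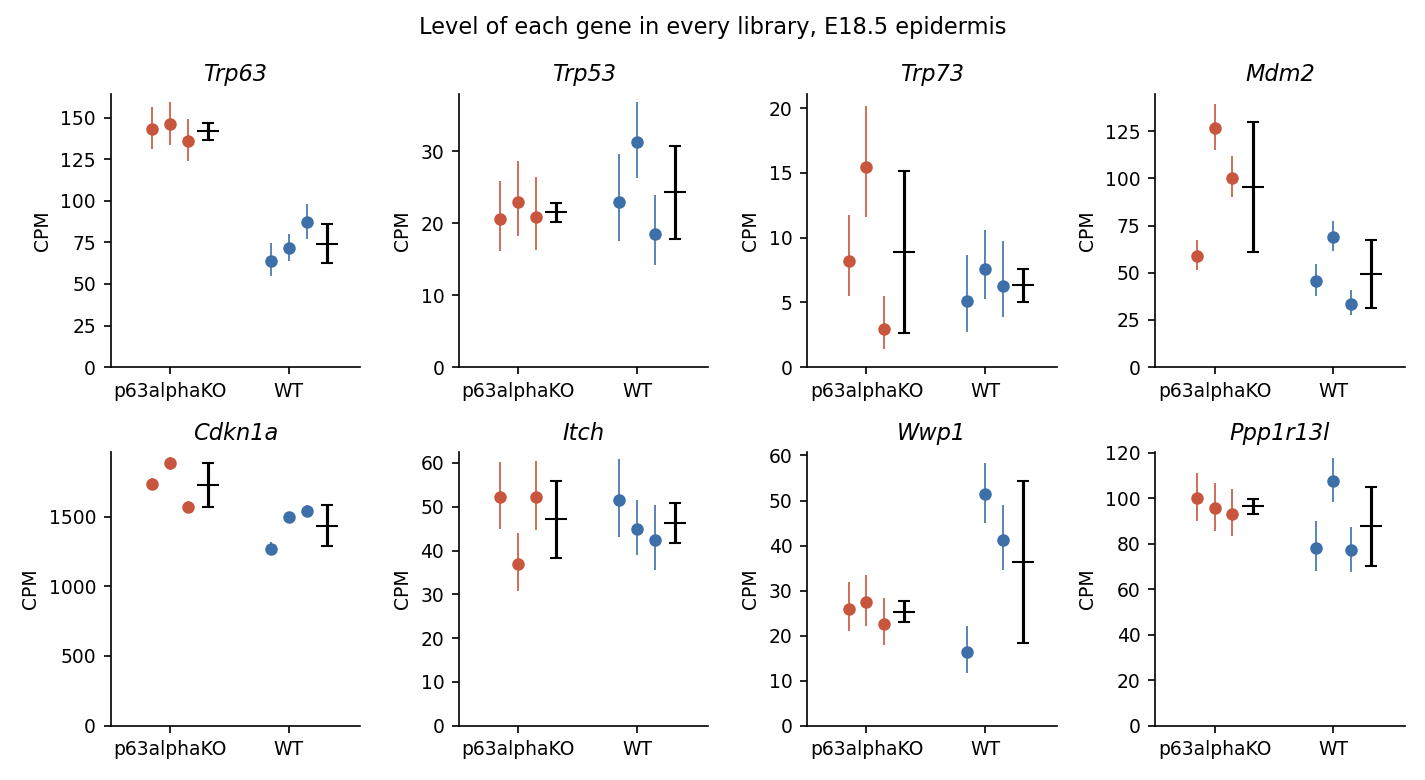
CPM of each gene in every library, p63alphaKO left of WT, with the 95% Poisson counting interval of each library as a thin line and the group mean ± SD (n = 3) as a black bar beside the points. The groups separate for Trp63 and Cdkn1a, and the widest spreads within a group are those of Trp73 in p63alphaKO and Wwp1 in WT.

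Trp63 was at 143, 146 and 136 CPM in p63alphaKO replicates 1, 2 and 3, against 63.9, 71.7 and 87.2 CPM in WT replicates 1, 2 and 3. All 3 p63alphaKO libraries lay above all 3 WT libraries, and the p63alphaKO values were the closer together. The means were 142 ± 5.15 CPM in p63alphaKO and 74.3 ± 11.9 CPM in WT (SD, n = 3 each), a coefficient of variation of 3.63% and 16.0%. These values rest on 456 to 508 reads per p63alphaKO library and 164 to 321 reads per WT library. The counting interval of the lowest p63alphaKO library began at 124 CPM, above the 98.1 CPM at which that of the highest WT library ended. Such intervals cover counting error only. The log2 fold change was 0.93 (SE 0.19, limma adjusted p = 0.0192), which is 1.91-fold with a 95% interval of 1.45 to 2.52. Leaving out p63alphaKO replicate 1, 2 or 3 gave log2 fold changes of 0.93, 0.91 and 0.96 with limma adjusted p of 0.0998, 0.0971 and 0.0854, so the size held and the call did not.

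Trp63 is a gene of the basal layer, so its level was also set against 7 basal keratinocyte markers (Krt5, Krt14, Krt15, Itga6, Itgb4, Col17a1 and Dst) in the same library. These markers did not move together: Krt15 fell, while the log2 fold changes of the other 6 were 0.14 to 0.39, with 0 of them called. Krt15, a keratin of basal cells, was at 375, 340 and 368 CPM in p63alphaKO replicates 1, 2 and 3, against 742, 1572 and 1728 CPM in WT replicates 1, 2 and 3 (log2 value -1.80, limma adjusted p = 0.0016). The mean log2 level of all 7 markers was 8.67, 8.35 and 8.5 in p63alphaKO replicates 1, 2 and 3 and 8.15, 8.61 and 8.72 in WT replicates 1, 2 and 3, with overlapping groups. Trp63 lay below that mean by a difference of -1.50, -1.15 and -1.40 log2 units in p63alphaKO and of -2.13, -2.43 and -2.26 in WT, and the groups did not overlap. The shift between the groups was 0.92 log2 units (exact permutation p = 0.1, the smallest possible). Against the 6 markers without Krt15 the shift was 0.62 (exact permutation p = 0.1), from differences of -1.51, -1.14 and -1.39 in p63alphaKO and -1.89, -2.09 and -1.92 in WT. Against Krt5 and Krt14 alone, the keratin pair of the basal layer, the shift was 0.58 (exact permutation p = 0.1), again with no overlap. These comparisons were chosen after seeing the data. All of these markers but Krt15 are also in the list of p63 targets described below. They are therefore not a measure of basal cell share that is independent of p63. In such bulk samples, more cells that make Trp63 and more Trp63 mRNA per cell cannot be told apart.

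**Figure D3:**
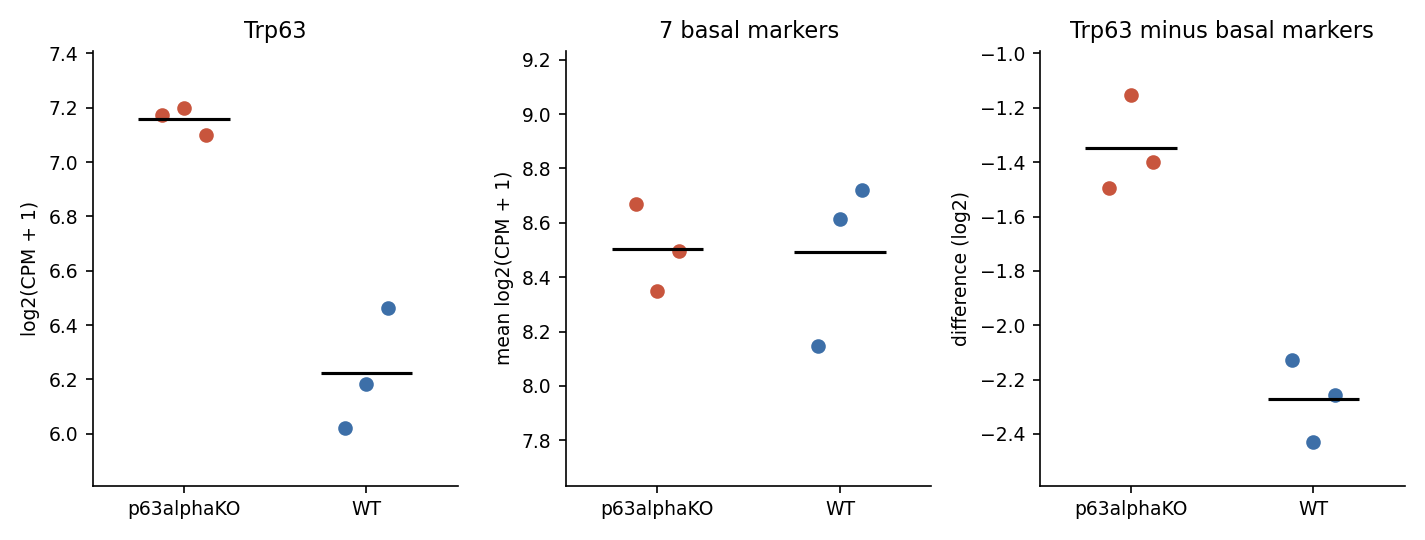
Trp63 (left), the mean of 7 basal markers (middle) and their difference (right) in each library on the log2(CPM + 1) scale, p63alphaKO left of WT, with lines at the group means and the same axis span in each panel. The mean of the basal markers overlaps between the groups. The difference lies between -1.50 and -1.15 in p63alphaKO and between -2.43 and -2.13 in WT. Without Krt15, which was lower in p63alphaKO, the shift between the groups is 0.62 in place of 0.92. All of these markers but Krt15 are also listed p63 targets.

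Trp53, which encodes the p53 tumour suppressor, was at 20.6, 23.0 and 20.9 CPM in p63alphaKO replicates 1, 2 and 3, against 23.0, 31.3 and 18.6 CPM in WT replicates 1, 2 and 3. The p63alphaKO values lay inside the range of the WT values. Trp53 had a log2 fold change of -0.14 (SE 0.28, limma adjusted p = 0.866), and the 95% interval ran from 0.603-fold to 1.37-fold. A change as large as that of Trp63 lies outside this interval. Without WT replicate 2 the value was 0.053.

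Trp73, whose product p73 is best known for roles in neurons and multiciliated cells, was near the limit of these libraries. It was at 8.19, 15.4 and 2.98 CPM in p63alphaKO replicates 1, 2 and 3, from 29, 53 and 10 reads, against 5.07, 7.59 and 6.30 CPM in WT replicates 1, 2 and 3, from 13, 34 and 20 reads. The WT values lay within the span of the p63alphaKO values, which differed among themselves by 5.18-fold. The counting intervals of p63alphaKO replicate 2 (11.6 to 20.2 CPM) and replicate 3 (1.43 to 5.49 CPM) did not meet, so the spread in that group was more than counting error. Its mean over all libraries was 7.59 CPM, under the minimum, and with no minimum its log2 fold change was 0.22 (limma adjusted p = 0.883).

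Mdm2 encodes the ubiquitin ligase that targets p53 for degradation and is itself induced by p53. It was at 59.0, 127 and 101 CPM in p63alphaKO replicates 1, 2 and 3, against 45.6, 69.2 and 33.7 CPM in WT replicates 1, 2 and 3. The groups overlapped through p63alphaKO replicate 1, which lay below WT replicate 2, and p63alphaKO was the higher in 8 of 9 pairings of libraries. The log2 fold change of 0.93 (SE 0.30) was as large as that of Trp63, with a 95% interval of 1.23-fold to 2.95-fold, but the unadjusted p of 0.00715 gave a limma adjusted p of 0.128. The difference from Trp63 was the spread: Mdm2 varied by 2.15-fold within p63alphaKO and 2.05-fold within WT, against 1.07-fold and 1.36-fold for Trp63. With DESeq2 on the reads recovered from the CPM values Mdm2 passed (1.04, adjusted p = 0.0351), and with edgeR's quasi-likelihood test it did not (1.02, adjusted p = 0.136). Its value was 0.69 both without p63alphaKO replicate 2 and without WT replicate 3, and 1.24 without p63alphaKO replicate 1.

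Itch and Wwp1 encode HECT-type ubiquitin ligases that bind p63 protein and can promote its degradation. Itch was at 52.2, 37.0 and 52.2 CPM in p63alphaKO replicates 1, 2 and 3, against 51.4, 44.9 and 42.5 CPM in WT replicates 1, 2 and 3. The WT values lay within the p63alphaKO range. Itch had a log2 fold change of 0.013 (SE 0.22, limma adjusted p = 0.988), with a 95% interval of 0.726-fold to 1.40-fold, and its sign turned with 4 of the 6 libraries left out in turn.

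Wwp1 was at 26.0, 27.4 and 22.7 CPM in p63alphaKO replicates 1, 2 and 3, against 16.4, 51.4 and 41.2 CPM in WT replicates 1, 2 and 3. The p63alphaKO values were close together and stood between the low WT replicate 1 and the other two WT libraries. WT replicate 1 had 42 reads (counting interval 11.8 to 22.1 CPM) and WT replicate 2 had 230 (44.9 to 58.4 CPM), so the WT spread was more than counting error. The log2 fold change was -0.36 (SE 0.35, limma adjusted p = 0.681, 95% interval 0.465-fold to 1.30-fold). It rested on WT replicates 1 and 2: it was -0.84 without WT replicate 1 (limma adjusted p = 0.0942) and -0.045 without WT replicate 2 (limma adjusted p = 0.973). It was -0.20 without WT replicate 3.

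Ppp1r13l encodes iASPP, the inhibitory member of the ASPP family, which binds p53 family proteins and is a known partner of p63 in keratinocytes. It was at 100.2, 95.8 and 93.4 CPM in p63alphaKO replicates 1, 2 and 3, against 78.3, 108 and 77.1 CPM in WT replicates 1, 2 and 3. WT replicate 2 lay above all 3 p63alphaKO libraries and the other two WT libraries below them. Ppp1r13l had a log2 fold change of 0.15 (SE 0.19, limma adjusted p = 0.770), with a 95% interval of 0.833-fold to 1.48-fold. It was 0.079, 0.31 and 0.068 without WT replicate 1, 2 and 3.

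Cdkn1a encodes p21, the cyclin-dependent kinase inhibitor through which p53 arrests the cell cycle. It was at 1736, 1882 and 1566 CPM in p63alphaKO replicates 1, 2 and 3, against 1271, 1497 and 1540 CPM in WT replicates 1, 2 and 3. The groups did not overlap, but they came close, at 1566 CPM in p63alphaKO replicate 3 and 1540 CPM in WT replicate 3, where the counting intervals met. The means were 1728 ± 158 CPM in p63alphaKO and 1436 ± 145 CPM in WT (SD, n = 3 each). The log2 fold change was 0.27 (SE 0.15, limma adjusted p = 0.421), which is 1.2-fold with a 95% interval of 0.965 to 1.5. Trp63 and Cdkn1a were the 2 genes of the 8 whose groups did not overlap, both higher in p63alphaKO, and 21% of all tested genes had groups without overlap (7.6% with p63alphaKO higher and 13.4% with it lower), so a separation like that of Cdkn1a was common in these libraries. The values rest on 3261 to 6704 reads per library.

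**Figure D4:**
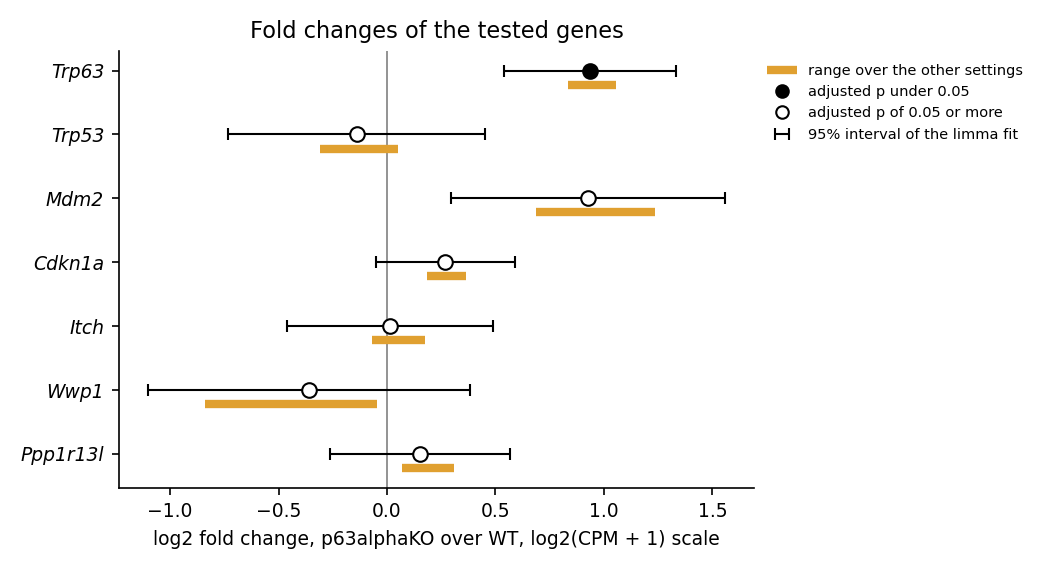
Log2 fold changes of the 7 tested genes, p63alphaKO over WT, from log2(CPM + 1) values, with the 95% interval of the limma fit (black) and the range over the other settings, left-out libraries included (orange). Trp63 is the filled point (adjusted p under 0.05), Mdm2 has the same size with a wider interval, and the orange bars of Trp53 and Itch reach across 0.

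Among the members' start sites with RefSeq sequence (GRCm38.p6), the upstream start of Cdkn1a carries a paired core of the p53 family element. RefSeq gave 7 windows, of 250 bases before to 50 after a start, for 5 of the 8 genes (Trp53, Trp73, Mdm2, Ppp1r13l and Cdkn1a). The search was for CATG, then 6 bases of any kind, then CATG, which reads the same on both strands. It was found in 1 of these 7 windows and in 234 of 32851 windows in the whole table (0.712%). The match runs from 29090931 to 29090944 on chromosome 17, beginning 48 bases before the start. The 250 bases before that start (chr17:29090729-29090978, plus strand) are shown 5′ to 3′ with the matched letters in capitals, because Cdkn1a is the family's main arrest target. A match of letters is a description, and binding was not measured.
Cdkn1a upstream start: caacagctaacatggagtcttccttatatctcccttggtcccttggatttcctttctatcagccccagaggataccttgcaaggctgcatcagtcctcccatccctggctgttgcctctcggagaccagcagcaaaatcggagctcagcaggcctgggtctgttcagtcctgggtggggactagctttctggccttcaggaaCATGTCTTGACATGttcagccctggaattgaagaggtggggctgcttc

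The other known targets of p53 showed no called change by limma. Of 32 listed targets, Mdm2 and Cdkn1a among them, 19 were tested and limma called 0. Over all tested genes it called 1.65%, so 0 of 19 is near that share. edgeR called 0 and DESeq2 called 2 of the 19. Over all 7464 tested genes edgeR called 82 and DESeq2 317. An unadjusted limma p under 0.05 was found for 6 of the 19, a larger share than the 15.6% of all tested genes. All 6 were higher in p63alphaKO. Over the 19, fold changes were positive in 10 and negative in 9, and the median log2 value was 0.0068. That median ran from -0.10 to 0.25 with 1 library left out and was 0.27 with a minimum mean of 50 CPM. The groups did not overlap for 3 of the 19 (15.8%), against 21% of all tested genes. All 3, Gadd45a, Trp53inp1 and Cdkn1a, were higher in p63alphaKO and 0 were lower. Over all tested genes, 7.6% had p63alphaKO above WT without overlap and 13.4% had it below. Gadd45a, a stress-induced arrest gene, was at 28.8, 23.9 and 35.8 CPM in p63alphaKO replicates 1, 2 and 3, against 9.74, 20.3 and 12 CPM in WT replicates 1, 2 and 3. Its log2 value was 1.07 (SE 0.32, limma adjusted p = 0.106), and it was 1 of the 2 genes DESeq2 called, with Mdm2. Pmaip1, which encodes the pro-apoptotic protein NOXA, was at 102, 88.5 and 56.4 CPM in p63alphaKO, against 74.8, 38.0 and 25.2 CPM in WT, a log2 fold change of 0.92 (limma adjusted p = 0.186). Without WT replicate 1 the value of Pmaip1 was 1.34 (limma adjusted p = 0.0283), and without WT replicate 3 it was 0.57 (limma adjusted p = 0.474). Perp, a desmosomal target of both p53 and p63, had a log2 fold change of -0.074 (limma adjusted p = 0.870) and was named after its value was seen.

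The cyclin-dependent kinase inhibitors, Cdkn1a included, showed no called change either: 0 of the 4 tested of 7 were called by limma, edgeR or DESeq2. Over all tested genes limma called 1.65%, so 0 of 4 is near that share. An unadjusted limma p under 0.05 was found for 1 of the 4, where 15.6% of all tested genes had one. That gene was Cdkn1c, the imprinted inhibitor p57, at 82.7, 110.1 and 83.5 CPM in p63alphaKO, against 269, 97.6 and 131 CPM in WT. WT replicate 1 was the high library, and the groups overlapped through WT replicate 2. Its log2 value was -0.72 (limma adjusted p = 0.239). It was -0.31 without WT replicate 1. Cdkn1b, which encodes p27, had a log2 fold change of 0.32 (limma adjusted p = 0.542).

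Among other genes that control p53 or p63 protein, Trp53bp2 was higher in p63alphaKO. It encodes ASPP2, the ASPP family member that binds p53 and promotes its apoptotic function. It was at 52.5, 43.7 and 54.3 CPM in p63alphaKO replicates 1, 2 and 3, against 22.6, 27.0 and 26.5 CPM in WT replicates 1, 2 and 3, with every p63alphaKO library above every WT library. The log2 fold change was 0.95 (SE 0.22, limma adjusted p = 0.0480). The call stood just inside the threshold and was lost with any 1 library left out (values from 0.88 to 1.05, limma adjusted p from 0.0625 to 0.206). Ppp1r13b, the gene of ASPP1, had a value of 0.26 (limma adjusted p = 0.733). Of the 3 ASPP family genes 1 was called, where limma called 1.65% of all tested genes. Differences between the 3 were not tested.

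That list held 27 genes, of which 22 were tested, with 9 positive and 13 negative fold changes and a median log2 value of -0.046. Limma called 1 of the 22, Trp53bp2, against 1.65% of all tested genes. An unadjusted limma p under 0.05 was found for 4 of the 22, where 15.6% of all tested genes had one. The groups did not overlap for 5 of the 22, namely Trp53bp2, Ppm1d and Fbxw7 on the higher side and Atm and Kat5 on the lower side. That is 22.7%, against 21% of all tested genes (7.6% with p63alphaKO higher and 13.4% with it lower), so the count over both sides is near the background. Atm, the kinase that activates p53 after DNA breaks, was at 13.6, 12.8 and 8.35 CPM in p63alphaKO, against 24.2, 21.4 and 29 CPM in WT, a log2 fold change of -1.06 (limma adjusted p = 0.103). Ppm1d, a p53-induced phosphatase that damps p53, was at 52.2, 53.6 and 63.2 CPM in p63alphaKO, against 39.0, 46.2 and 26.1 CPM in WT (0.62, limma adjusted p = 0.221). Fbxw7 and Kat5, named after their values were seen, had log2 fold changes of 0.47 and -0.40 (limma adjusted p = 0.239 and 0.682). Mdm4 and Usp7, partners of Mdm2 in p53 control that were also named afterwards, had values of -0.12 and -0.19 (limma adjusted p = 0.862 and 0.652).

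None of the tested genes known as p63 targets in epidermis passed the limma threshold. Of 42 listed targets 41 were tested and 0 were called by limma. Over all tested genes it called 1.65%, so 0 of 41 is near that share. edgeR called 0 and DESeq2 called 2 of the 41, where DESeq2 called 317 of all 7464 tested genes. An unadjusted limma p under 0.05 was found for 10 of the 41, in both directions, a larger share than the 15.6% of all tested genes. Fold changes were positive in 20 and negative in 21, the median log2 value was -0.054, and the groups did not overlap for 9, with p63alphaKO above WT for 6 and below for 3. These 9 are 22% of the 41, near the 21% of all tested genes. The sides were not split alike: over all tested genes 7.6% had p63alphaKO above WT and 13.4% had it below. Cyp26b1, a retinoic acid-degrading enzyme, was at 57.9, 81.5 and 45.0 CPM in p63alphaKO replicates 1, 2 and 3, against 179, 117 and 97.3 CPM in WT replicates 1, 2 and 3. Its log2 fold change of -1.07 (SE 0.26) had a limma adjusted p of 0.0513, just outside the threshold, and without p63alphaKO replicate 2 or WT replicate 3 it was -1.30 and -1.26 (limma adjusted p = 0.0341 and 0.0196). Without p63alphaKO replicate 3 or WT replicate 1 it was -0.87 and -0.83 (limma adjusted p = 0.263 and 0.101). Lama3, a laminin chain of the epidermal basement membrane, was at 58.2, 53.9 and 83.2 CPM in p63alphaKO, against 28.1, 44.9 and 41.2 CPM in WT (0.76, limma adjusted p = 0.135). Dsc3, a desmosomal cadherin, was at 210, 202 and 236 CPM in p63alphaKO, against 233, 376 and 382 CPM in WT (-0.58, limma adjusted p = 0.162). Without WT replicate 1, where Dsc3 was at its lowest among the WT libraries, its value was -0.81 (limma adjusted p = 0.0246).

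**Figure D5:**
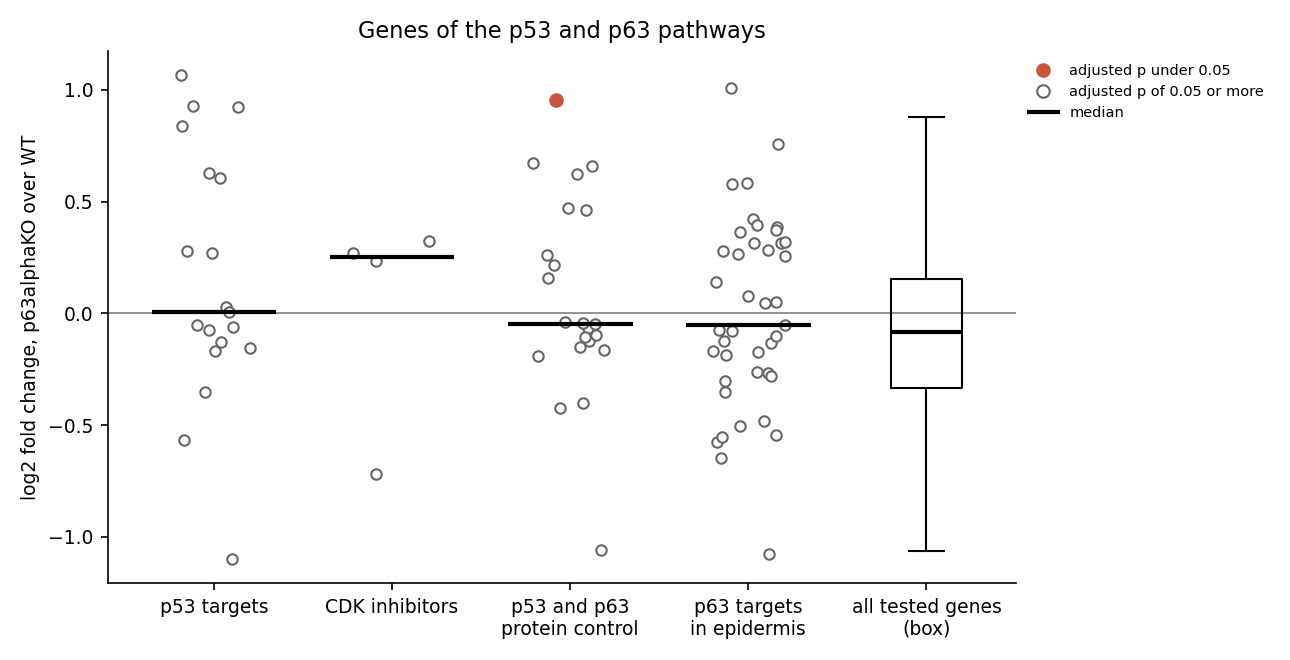
Log2 fold changes, p63alphaKO over WT, of every tested gene of 4 pathway lists (points), with list medians as black lines; the box is the interquartile range and median of the 7464 tested genes, with whiskers to the farthest gene within 1.5 box heights. The called gene is Trp53bp2 (filled), and the list medians lie between -0.054 and 0.25, against -0.085 over all tested genes.

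The genes whose pattern over the 6 libraries was nearest to that of Trp63, among 3008 others averaging 50 CPM or more, were Gm26917, Sox9, Foxo1, Egln3 and Tbc1d15. Likeness was the root mean square difference of log2 values centred on each gene's own mean, which was 0.15, 0.16, 0.17, 0.19 and 0.19 log2 units for these genes and had a median of 0.53. Sox9, a transcription factor of the hair follicle, was at 225, 238 and 231 CPM in p63alphaKO replicates 1, 2 and 3, against 132, 145 and 172 CPM in WT replicates 1, 2 and 3. Like Trp63, it had its lowest value in WT replicate 1 and its highest WT value in replicate 3. Its log2 value was 0.63 (limma adjusted p = 0.0696). Foxo1, a forkhead transcription factor, had a value of 0.74 (limma adjusted p = 0.0743), and Egln3 was the 1 of the 5 that passed (0.73, limma adjusted p = 0.0313). Its call was lost without p63alphaKO replicate 1, 2 or 3 (limma adjusted p = 0.117, 0.122 and 0.160). Genes chosen for likeness to a gene that differs between the groups differ between the groups too, so these values are a description.

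The libraries held 2564407 to 4474764 reads. Summed markers of dermis, muscle, blood and endothelium were lower in every p63alphaKO library than in any WT library. Those of melanocytes were higher. Summed over 12 fibroblast and dermis markers, the level was 564 to 967 CPM in p63alphaKO and 2591 to 5637 CPM in WT. Fold changes were negative in all 11 tested, and limma called 9 of them lower. Skeletal muscle markers summed to 60.1 to 109 CPM in p63alphaKO and 430 to 2726 CPM in WT. All 8 tested had negative fold changes, and 6 were called lower. Blood markers summed to 559 to 1766 CPM in p63alphaKO and 1903 to 3441 CPM in WT. All 4 tested had negative fold changes, and 3 were called lower. Over all tested genes limma called 1.18% lower. The 6 melanocyte markers summed to 321 to 455 CPM in p63alphaKO and 194 to 310 CPM in WT, with 0 of 3 tested called. The 6 endothelial markers summed to 2.39 to 4.95 CPM in p63alphaKO and 8.48 to 40.1 CPM in WT, and the 7 immune markers to 7.75 to 19.2 CPM in p63alphaKO and 12.1 to 23.0 CPM in WT, with none of either list at the minimum for testing and the T cell genes Cd3e and Cd3g at 0 in all libraries, which allows up to 0.670 to 1.17 CPM. The basal markers summed to 4617 to 5728 CPM in p63alphaKO and 3449 to 6237 CPM in WT, with 1 of 7 called lower (Krt15) and 0 called higher. The groups did not overlap for 3 of the 7 (42.9%, against 21% of all tested genes), with p63alphaKO above WT for 2 and below for 1. Basal keratinocyte mRNA was found in both groups. The part of the dermal, muscle, blood, endothelial and melanocyte differences in the values of Trp63, Trp53bp2, Atm and Cyp26b1 was not tested.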

How the data were processed

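The deposited table gives 6 libraries (3' digital mRNA sequencing, per the labels) in CPM, the unit in which the authors deposited them. STAR, HTSeq and mm10 are named in the submitters' processing notes, and versions, annotation and strand setting are not given in those sources. Low values stepped in whole reads (100% of values within 0.0055 CPM), which gave 2564407 to 4474764 reads per library, so 10 CPM is 25.7 to 44.8 reads. Groups came from the sample titles. The test was the two-sided one of limma 3.58.1 with a trend (R 4.3.3), fitted to log2(CPM + 1) by genotype alone for genes averaging 10 CPM or more, with Benjamini-Hochberg adjustment over all 7464. edgeR 4.0.16 and DESeq2 1.42.0 on the recovered reads, other pseudocounts, filters and scalings, a replicate term and each library left out were alternatives. The limma, edgeR and DESeq2 fits were also run on simulated reads that had the same spread setting for every gene. Spread differed between genes in these libraries, so that run does not measure the errors made here. P-values measure the spread between these libraries, which may be technical.

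The genes and lists were chosen with earlier results of these data known. All 8 genes are named, with the genes of smallest p from each pathway list (3, as no list had more than 1 call) and the 5 genes nearest to Trp63. Positions are from GENCODE M21 (99.6% of gene IDs found) and are 1-based. Exons of Cdkn1a, Trp73 and Wwp1 overlap a gene on the opposite strand (AC167363.2, Trp73os and Gm12353), so their values are uncertain if counting ignored strand; Trp73os and Gm12353 were at 0 CPM in all libraries. Trp53 has a processed pseudogene, Trp53-ps, not analysed here, which could share its reads.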

Additional observations from a re-analysis of the deposited data

How the results depend on the processing

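Trp63 kept its direction in all 15 alternatives, with log2 fold changes of 0.83 to 1.06, the same range as with 1 library left out, and it stayed called except without p63alphaKO replicate 1, 2 or 3. The count of called genes, 123, was 36 with a minimum mean of 50 CPM, 317 with DESeq2 (against 82 with edgeR) and 37 to 186 with 1 library left out. It was 46, 67 and 37 without p63alphaKO replicates 1, 2 and 3 and 186 without WT replicate 1. Genes called higher were 35, and 3 to 90 with 1 library left out, and genes called lower were 88, and 34 to 96. The count of called p53 targets, 0, was 2 with DESeq2 and 0 to 1 with 1 library left out, and that of p63 targets, 0, was 1 with a pseudocount of 5, 2 with DESeq2 and 0 to 1 with 1 library left out. For p53 and p63 protein control the count, 1, was 0 with no filter, 0 with 1 library left out in each case, and 0 with a minimum of 50 CPM, where Trp53bp2 was not tested. With 1 library left out, Trp53 ran from -0.31 to 0.053, positive without WT replicate 2, and Itch from -0.068 to 0.18. Itch was negative when p63alphaKO replicate 1 (-0.068) or 3 (-0.068), or WT replicate 2 (-0.0062) or 3 (-0.045), was dropped. The causes were not tested, other than the missing test of Trp53bp2. Trp73 had 1 alternative, since it was below the minimum in the others. TMM factors moved the median of all tested genes to -0.0064 from -0.085.

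No pairing by replicate number was seen: deviations of same-numbered libraries correlated at -0.023, 0.066 and -0.11 across genes. Not every library correlated best with its own number. With 3 libraries a group, such values cannot exclude a pairing with a small effect. With the replicate block the call counts were 127 genes, 0 for p53 and p63 protein control and 1 for p63 targets (Cyp26b1), and Trp63 and Egln3 had an adjusted p of 0.0361 and 0.0660. Trp73 had the fewest reads of the 8 genes, 10 to 53 per library.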
